A study of Homo sapiens with 4 samples.

Results

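The dense SS18::SSX peak clusters described here are chains of neighbouring peaks in the SS18::SSX CUT&RUN list of DMSO-treated HSSY II cells. In CUT&RUN, a nuclease tethered to an antibody cuts out the DNA at the bound protein, and the fragments that leave the nucleus are sequenced. Peaks on 1 chromosome were chained when the next start lay at most 10 kb beyond the furthest end so far, and chains of 4 or more peaks were kept. This gave 631 chains with 4963 of the 15141 peaks. The remaining peaks stood alone (5605 lone peaks) or in runs of 2 or 3 (4573 peaks). The chains were chosen by the positions of the SS18::SSX DMSO peaks, so their number, their size and the strength of their peaks in that list are descriptions of the choice. So is the spread of chained against lone peaks along the chromosomes.

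All libraries were from HSSY II, a human synovial sarcoma (SS) line that carries SS18::SSX1. Cells were treated for 4 days with DMSO or with 2.5 μM MS67, a proteolysis-targeting chimera (PROTAC) that brings WDR5 to the VHL E3 ligase for degradation. SS18::SSX and WDR5 were each profiled after both treatments, with 1 library per condition and murine NIH-3T3 cells added as a spike-in. No difference between conditions therefore had a replicate check, and the intervals below (95%, exact Clopper-Pearson) cover counting error only. Peaks of 1 chain share their surroundings and are not independent, so these intervals are too narrow. Recovered coverage was 0.541 fragments per bp for SS18::SSX with DMSO, 0.737 for SS18::SSX with MS67, 0.368 for WDR5 with DMSO and 0.168 for WDR5 with MS67. The SS18::SSX list fell from 15141 peaks with DMSO to 1175 with MS67 although coverage was higher with MS67, whereas the WDR5 list and its coverage were both lower with MS67. With 1 library per condition, a lost call from less binding and one from lower enrichment in that library cannot be told apart, and for WDR5 lower depth also cannot.

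SS18::SSX is the fusion oncoprotein of SS. It takes the place of SS18 in SWI/SNF (BAF) chromatin-remodeling complexes, and its SSX part binds nucleosomes that carry Polycomb-type ubiquitylated H2A, a mark of silent developmental genes. WDR5 is a scaffold subunit of the KMT2/MLL complexes, which methylate H3K4, and it is usually found at active promoters. The study asked whether the 2 proteins share sites and whether removing WDR5 lowers the chromatin binding of SS18::SSX.

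The chains differed in sequence and in the other lists that share their sites, and 4 chosen sequences are printed as examples. They come from strong peaks of large chains and do not stand for chained peaks as a whole. Each is the 200 bp around the summit of a chain's strongest peak, on the plus strand of hg38, with CpG dinucleotides in capitals. The first is from the chain with the most peaks (chr16:1003699-1003898, intergenic, near *SOX8*). The second is from the *HOXA* chain (chr7:27131251-27131450, at a promoter), the chain with the most peaks at a developmental transcription factor gene after the first. Another is from the largest chain without a WDR5 DMSO peak (chr12:132345735-132345934, intergenic). The last is from the strongest peak in the second-largest chain that was called in all 4 lists (chr18:79526026-79526225, in an intron of *NFATC1*). Overlaps are those of the whole peak, and the WDR5 MS67 peak here (chr18:79526367-79526531) lay outside the printed stretch.
SOX8 chain: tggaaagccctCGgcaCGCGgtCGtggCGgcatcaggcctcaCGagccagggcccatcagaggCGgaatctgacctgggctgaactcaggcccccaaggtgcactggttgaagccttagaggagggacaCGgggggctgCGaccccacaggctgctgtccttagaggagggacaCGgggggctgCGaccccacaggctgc
HOXA chain: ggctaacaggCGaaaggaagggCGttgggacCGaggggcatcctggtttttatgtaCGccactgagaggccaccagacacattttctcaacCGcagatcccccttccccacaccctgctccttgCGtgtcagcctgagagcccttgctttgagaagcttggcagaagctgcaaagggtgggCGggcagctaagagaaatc
chain without WDR5: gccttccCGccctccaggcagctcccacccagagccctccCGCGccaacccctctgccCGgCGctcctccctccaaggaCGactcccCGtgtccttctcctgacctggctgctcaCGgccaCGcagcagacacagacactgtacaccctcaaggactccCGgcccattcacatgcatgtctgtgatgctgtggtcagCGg
NFATC1 chain: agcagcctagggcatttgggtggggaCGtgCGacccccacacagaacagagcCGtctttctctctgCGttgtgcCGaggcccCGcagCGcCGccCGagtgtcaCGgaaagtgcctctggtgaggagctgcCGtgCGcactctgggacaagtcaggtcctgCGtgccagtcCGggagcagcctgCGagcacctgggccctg
The GC contents were 67.5%, 57.5%, 66.5% and 67.0%, with 11, 7, 11 and 15 CpGs, in the order printed. The *SOX8* sequence held an exact repeat of 42 bp, whose copies start 45 bp apart. The *HOXA* site and the site of the chain without WDR5 were overlapped by no WDR5 peak, whereas the *SOX8* site had a WDR5 DMSO peak. With MS67, SS18::SSX was still called at the printed sites other than that of *HOXA*.

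A chain held 4 to 83 peaks, with a median of 5, and was 1.49 to 188 kb long, with a median of 13.5 kb. Together the chains spanned 11.7 Mb, or 0.4% of the genome's bases. The 10 largest chains held 459 peaks (9.25% of the chained peaks). Neighbouring peaks in a chain lay a median of 1104 bp apart, and 47.4% of the 4332 gaps were under 1 kb. Chained peaks had a median −log10 q of 4.47, a fold enrichment of 3.03 over the local background and 34 fragments at the summit. Lone peaks had a −log10 q of 3.10, a fold enrichment of 4.49 and 10 fragments. The local background at the summit was 19.2 times the lowest background of the list in chained peaks and 2.33 times in lone peaks. This background was recovered from the fold and −log10 p of each peak, and the sources do not state a control library. It may therefore hold signal of neighbouring SS18::SSX peaks, which was not tested. At the size threshold, the 547 runs of 3 peaks had a median −log10 q of 3.85 and the 205 chains of 4 peaks had 3.95.

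**Figure D1:**
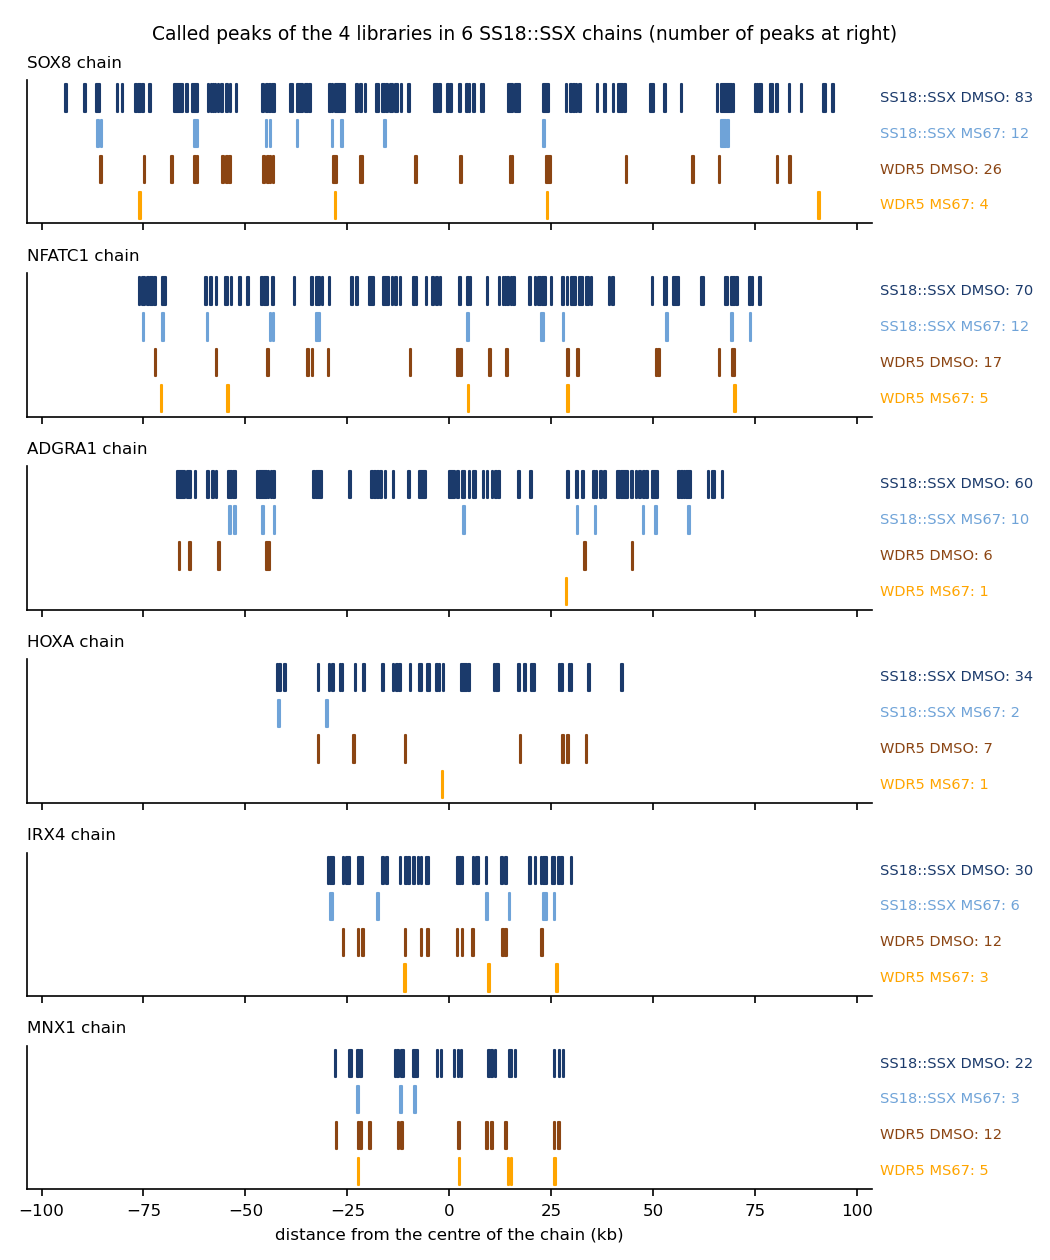
Called peaks of SS18::SSX and WDR5 after DMSO or MS67 in 6 chains, against the distance from the centre of each chain in kb. Each bar is 1 peak, drawn at least 0.35 kb wide, with the number of peaks at right. The *SOX8* and *NFATC1* chains had 12 SS18::SSX MS67 peaks each, and the *HOXA* chain had 2 beside 34 with DMSO.

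The 15 chains with the most peaks held 30 to 83 SS18::SSX DMSO peaks each, at genes of several kinds or at none. The chain with the most peaks (chr16:971533-1159871) held 83 SS18::SSX DMSO peaks and the start sites of *SOX8*, a transcription factor of neural crest and glial cells, *SSTR5*, a somatostatin receptor, *CACNA1H*, a T-type calcium channel, *LMF1*, a lipase maturation factor, and *C1QTNF8*. This chain held 12 SS18::SSX MS67 peaks, 26 WDR5 DMSO peaks and 4 WDR5 MS67 peaks. The second chain (chr18:79380384-79532795) held the start site of *NFATC1*, a transcription factor activated by calcineurin, and had 70, 12, 17 and 5 peaks in the same order of lists. The third (chr10:132972208-133105965) held the start of *ADGRA1*, an adhesion G protein-coupled receptor, and had 60, 10, 6 and 1 peaks. WDR5 DMSO peaks were thus few in the *ADGRA1* chain beside its SS18::SSX peaks. In these 3 chains, 10, 12 and 11 of the SS18::SSX DMSO peaks were overlapped by an SS18::SSX MS67 peak.

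*CHRNA4*, a nicotinic acetylcholine receptor subunit, lay in a chain near the end of chromosome 20 with 27, 4, 6 and 3 peaks and a background of 55.3 times the lowest of the list. A further chain of 15 SS18::SSX peaks lay in *COL20A1*, a collagen gene, and had a background of 50.1. A chain at *NTSR1*, the neurotensin receptor, lay on the same chromosome arm and had 10, 1, 2 and 1 peaks. The WDR5 DMSO background of the Mb that holds each of these chains was 12.8 times the lowest of the WDR5 list. The part of this raised background in the dense calls was not tested.

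Other chains of 30 or more peaks held 30 to 41 SS18::SSX DMSO peaks each. *GALNS*, a lysosomal sulfatase, and *TRAPPC2L* and *PABPN1L* had start sites in the chain at chr16:88856102-88956731, with 41, 7, 7 and 2 peaks. Most of this chain lay within *CBFA2T3*, whose own start site was outside it. *GPER1*, a G protein-coupled estrogen receptor, lay in a chain with 36, 7, 10 and 3 peaks. The homeobox gene *VENTX*, the stem cell gene *UTF1* and the metalloprotease gene *ADAM8* shared a chain with 33, 8, 8 and 2 peaks. The chain at chr4:1489452-1578642 overlapped no protein-coding gene and had 32, 6, 3 and 1 peaks. The nearest coding start site, that of *NKX1-1*, was 83010 bp away.

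Chains of this size also lay at transcription factor genes. The chain at *BHLHE23*, a basic helix-loop-helix factor, had 31, 3, 8 and 4 peaks. *IRX4*, a homeobox gene of the heart ventricle, had 30, 6, 12 and 3, and *UNCX*, a homeobox gene of the somites, had 30, 3, 12 and 2. None of these 3 chains had as many SS18::SSX MS67 as WDR5 DMSO peaks. A chain of 30 peaks at the tryptase genes of mast cells (*TPSG1*, *TPSB2*, *TPSAB1* and *TPSD1*) had 7, 13 and 5 peaks of the other lists. A chain within *PTPRN2*, which encodes a phosphatase-like protein of secretory vesicles, had 30, 7, 13 and 5. The chain at *F7*, the coagulation factor VII gene, and *MCF2L* had 30, 3, 5 and 0.

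The *HOXA* chain (chr7:27129289-27213942) was the one chain of 15 or more peaks that lay over 5 Mb from a chromosome end, at 27.2 Mb. It ran from *HOXA3* to *HOXA13*, the homeobox genes that pattern the body axis, and 18 of its 34 peaks were at promoters. Their −log10 q reached 14 and their summits a pileup of 78 fragments. Of these 34 peaks, 3 overlapped a WDR5 DMSO peak, 1 was still called with MS67, and 0 overlapped a WDR5 MS67 peak. Counted over its whole span, the *HOXA* chain held 34, 2, 7 and 1 peaks in the order of lists used above. A chain of 8 peaks lay beside it at *HOXA2*. The *HOXD* chain (chr2:176073021-176125238), from *EVX2* and *HOXD13* to *HOXD9*, had 14 SS18::SSX DMSO peaks, 0 SS18::SSX MS67 peaks, 4 WDR5 DMSO peaks and 1 WDR5 MS67 peak. At *CDX2*, a homeobox gene of the intestine, a chain had 14, 2, 5 and 0 peaks. *MNX1*, a homeobox gene of motor neurons, lay in a chain of 22, 3, 12 and 5 peaks (chr7:157002581-157058911), in which 10 SS18::SSX peaks overlapped WDR5 and 3 were still called with MS67. *NKX6-2*, a homeobox gene of glial cells and neurons, lay in a chain of 19, 4, 6 and 2 peaks with a background of 69.1. *SIM2*, a basic helix-loop-helix factor, had 7, 1, 2 and 0, and *RPL7*, a ribosomal protein gene, had 4, 1, 3 and 0. The SS18::SSX MS67 and WDR5 DMSO peaks of the *RPL7* chain lay outside *RPL7*, within the overlapping gene *RDH10*. The SS18::SSX MS67 peak (chr8:73296634-73297150) was centred at an annotated promoter and lay upstream of the *RPL7* start site (chr8:73295789). Of the other genes the study followed, *FOXC1* and *FZD10* had 1 lone peak each within 10 kb, and *RPL35* had a run of 3.

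Chains were at start sites of developmental transcription factors more often than at coding start sites as a whole. Of 20007 protein-coding genes, 339 (1.69%) had a start site in a chain. Among homeobox genes it was 50 of 200 (25%), among *PAX*, *SOX* and *FOX* genes 12 of 73 (16.4%), among developmental basic helix-loop-helix genes 8 of 63 (12.7%), and among T-box, *GATA*, *ZIC* and *GLI* genes 4 of 35 (11.4%). Over these 4 lists the count was 74 of 371 (19.9%), and 58 of the 74 lay over 5 Mb from a chromosome end. Several of these genes sit beside each other in 1 cluster and share a chain, so they are not independent. Examples outside the *HOX* clusters are *PAX6*, *SOX2*, *GATA3*, *OLIG2* and *EN1*.

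Other gene families had smaller shares. Ion channels and neurotransmitter receptors had 14 of 264 genes in a chain (5.30%), 10 of them near a chromosome end. WNT and Frizzled genes had 3 of 52 (5.77%; *FZD8*, *FZD9* and *WNT7B*), and FGF ligands and receptors had 2 of 35 (*FGF22* and *FGFRL1*). Axon guidance genes had 1 of 71 (1.41%; *EFNA2*). TGF-β, BMP and hedgehog genes (47 genes), clustered protocadherins (53) and histone genes (94) had 0, and zinc finger *ZNF* genes had 4 of 551 (0.726%). A start site in a chain does not show that the gene is regulated there. Of all chains, 248 held a coding start site, 191 overlapped a coding gene without its start, 85 overlapped long noncoding RNA genes alone, and 107 overlapped no gene of either type.

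Most chained peaks lay near chromosome ends. Within 5 Mb of an end, a window with 7.77% of the genome's bases, lay 3554 of the 4963 chained peaks (71.6%). This window held 14.2% of lone peaks and 35.6% of all SS18::SSX DMSO peaks. Chained and lone peaks were set apart by the spacing of these same peaks, so a stretch dense in them holds few lone ones. The contrast of the 2 classes in place therefore describes the choice. For the other lists, the window held 52.8% of SS18::SSX MS67 peaks, 15.6% of WDR5 DMSO peaks and 14.2% of WDR5 MS67 peaks. By chains, 381 of 631 (60.4%) were in the window and 251 were within 2 Mb, and 57 of the 58 chains of 15 or more peaks were in it. The chains were uneven between ends. Of 48 chromosome ends, 31 had a chain in the window, and the 18 ends with 100 or more chained peaks held 3165 of them (63.8%). The 48 include the short-arm ends of chromosomes 13, 14, 15, 21 and 22, which had no SS18::SSX peak and no WDR5 DMSO peak. The long-arm end of chromosome 20 had 336 chained peaks beside 29 lone ones, that of chromosome 10 had 303 beside 18, and the short-arm end of chromosome 7 had 292 beside 14. The median WDR5 DMSO background at these 3 ends was 12.6, 10.3 and 9.49 times the lowest of its list. At the short-arm end of chromosome 1, with 240 chained peaks, it was 5.78. Taken by the Mb that holds each SS18::SSX peak, the median WDR5 DMSO background was 7.54 for chained and 5.11 for lone peaks. Mb with a background above the 95th percentile held 178 chains with 1745 chained peaks. Gene copy number was not measured in these files, and its part in the distribution was not tested. The window also held 12.5% of coding genes, and 211 of the 2492 coding start sites in the window (8.47%) were in a chain, against 128 of 17515 elsewhere (0.731%).

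**Figure D2:**
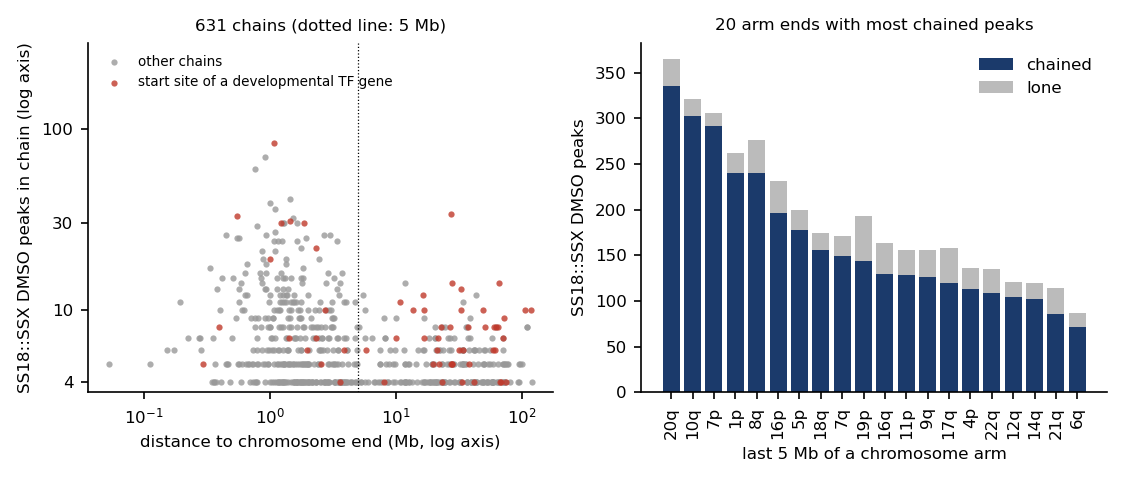
Left, SS18::SSX DMSO peaks per chain against the distance to the nearest chromosome end in Mb (both axes log), with chains at a developmental transcription factor start site in red. Right, chained and lone SS18::SSX DMSO peaks in the last 5 Mb of 20 chromosome arms, stacked. The chains of 15 or more peaks lie left of the 5 Mb line except *HOXA*, and the end of 20q has the most chained peaks (336).

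Chained peaks overlapped WDR5 less often than lone peaks did. A WDR5 DMSO peak overlapped 1226 of the 4963 chained peaks (24.7%; 23.5 to 25.9%), 38.8% of the peaks in runs of 2 or 3, 37.4% of lone peaks (36.1 to 38.7%) and 33.7% of all 15141. The share went down with run size, from 35.4% in runs of 3, just below the size threshold, to 31.7% in chains of 4. Chains of 5 to 7 had 28.0%, chains of 8 to 14 had 22.4% and chains of 15 or more had 19.9%. It was also lower with every chain weighted equally, at 27.4% ± 21.9 (SD, n = 631 chains). No chained peak overlapped WDR5 in 127 chains, and 50% or more did in 144 chains. The gap was smaller when chains were built from the SS18::SSX peaks with −log10 q above 3 and fold above 3, at 37.0% of 1195 chained peaks (34.2 to 39.8%) and 40.1% of lone peaks (38.6 to 41.7%), with overlapping intervals. With WDR5 peaks held to −log10 q above 3 and fold above 6 as well, the shares were 4.10% (3.05 to 5.38%) and 11.3% (10.3 to 12.3%).

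The lower overlap was seen in classes of −log10 q, place and width. In 5 equal classes of −log10 q, the overlap of chained against lone peaks was 19.3% against 33.4% in the weakest class and 31.5% against 48.7% in the strongest. At promoters it was 35.4% against 49.9%, in introns 22.3% against 31.2% and between genes 22.8% against 27.7%. Within 5 Mb of a chromosome end it was 22.2% against 35.5% and elsewhere 31% against 37.7%. In the widest of 5 width classes it was 33.3% against 62.3%. Matched on the summit pileup, the gap was wide in the highest of 5 classes (20.7%, 19.2 to 22.3%, against 61.8%, 43.6 to 77.8%, for 34 lone peaks). In the class below it was 27.9% against 41.9%. Most lone peaks were in the 3 lowest pileup classes. There the shares were 23.3% against 35.6%, 35.2% against 40.1% and 31.1% against 34.8%, each with overlapping intervals. In the class of lowest GC content, the order turned, with 23.1% of chained and 21.0% of lone peaks and overlapping intervals.

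**Figure D3:**
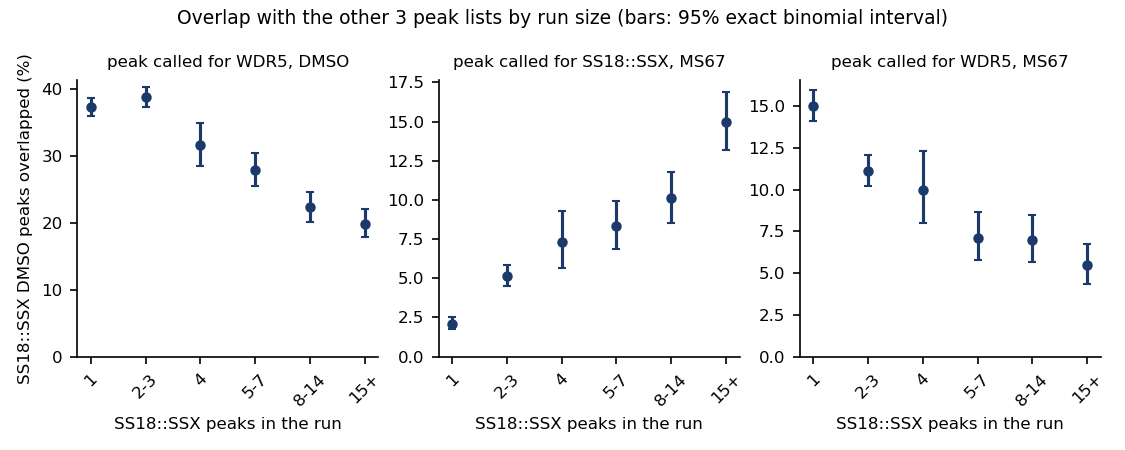
Share of SS18::SSX DMSO peaks overlapped by a peak of the other 3 lists in percent, by the number of SS18::SSX peaks in the run, with 95% exact binomial intervals. The share with WDR5 DMSO goes from 37.4% for lone peaks to 19.9% in chains of 15 or more, and the share with SS18::SSX MS67 from 2.11% to 15%.

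More chained than lone SS18::SSX peaks were still called after MS67. An SS18::SSX MS67 peak overlapped 526 of the 4963 chained peaks (10.6%; 9.76 to 11.5%), against 5.14% in runs of 2 or 3, 118 of 5605 lone peaks (2.11%; 1.75 to 2.52%) and 5.81% of all peaks. These peaks are called kept here. The share was 6.7% in runs of 3, just below the size threshold, 7.32% in chains of 4 and 15% in chains of 15 or more. The mean over chains was 8.94% ± 12.7 (SD, n = 631). In 366 chains no peak was kept, in 153 exactly 1 was, and in 12 chains 50% or more were. Kept chained peaks had a median −log10 q of 7.75 with DMSO, against 4.47 for all chained peaks.

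The size and direction of this difference depended on how strength was matched. In the classes of −log10 q, more chained than lone peaks were kept in each class, from 1.44% against 0.369% to 23.4% against 10.7%. In the width classes the shares were 1.62% against 0.456% in the narrowest and 24.3% against 11.6% in the widest. Matched on summit pileup, fewer chained than lone peaks were kept in 4 of the 5 classes. With 33 or more fragments, 409 of 2621 chained peaks (15.6%; 14.2 to 17.1%) and 12 of 34 lone peaks (35.3%; 19.7 to 53.5%) were kept. With 21 to 32 fragments the shares were 5.74% (4.63 to 7.02%) and 11.1% (7.68 to 15.4%), and with 15 to 20 fragments they were 4.21% and 5.10%. With 10 to 14 fragments they were 2.55% (0.833 to 5.85%) and 1.33% (0.853 to 1.97%). With 5 to 9 fragments, 0 of 43 chained peaks (up to 8.22%) and 11 of 2700 lone peaks (0.407%) were kept. The intervals of chained and lone peaks overlapped in the 3 lowest pileup classes. Background differed within these classes, with a median of 28.6 times the lowest in chained and 12.5 times in lone peaks of the highest class, where the median −log10 q was 5.60 and 11.8. In the class of 10 to 14 fragments, the background was 4.53 and 3.08 times the lowest and the −log10 q 2.72 and 3.58.

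**Figure D4:**
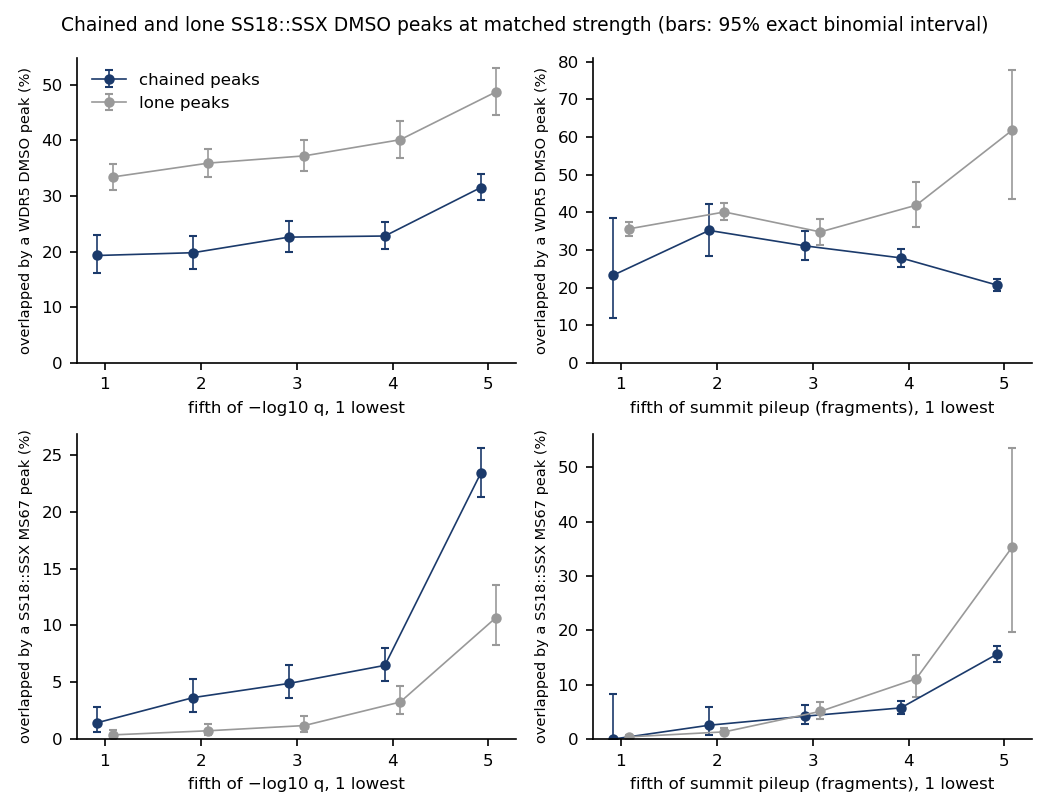
Share of chained and lone SS18::SSX DMSO peaks overlapped by a WDR5 DMSO peak (top) or an SS18::SSX MS67 peak (bottom) in percent, in 5 classes of −log10 q (left) or summit pileup in fragments (right), with 95% exact binomial intervals. Chained peaks are above lone peaks for MS67 in each −log10 q class and below them in 4 of the 5 pileup classes (15.6% against 35.3% in the highest), all but that of 10 to 14 fragments.

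Within a chain, the strongest peak was both overlapped by WDR5 and kept more often than the others. The strongest peak of each chain overlapped WDR5 DMSO in 35.5% of chains and was kept in 22.0%, against 23.1% and 8.93% of the other chained peaks. Among the 153 chains with 1 kept peak, that peak was the strongest in 72, and these 153 chains held a mean of 7.34 peaks. Strength here is the −log10 q with DMSO, with which the kept share also rose over all SS18::SSX DMSO peaks. The first and last peaks of a chain overlapped WDR5 more often than the inner ones (30.1% against 22.9%) and were kept less often (7.13% against 11.8%). Long chains have relatively few end peaks, and in each of the 4 classes of chain size the order was the same with overlapping intervals. In chains of 4, the overlap was 32.9% at the ends and 30.5% inside, and in chains of 15 or more it was 25.0% and 19.5%. The kept shares were 5.37% and 9.27% in chains of 4, and 9.48% and 15.5% in chains of 15 or more. Chained peaks with a WDR5 DMSO peak were kept in 15.6% (13.6 to 17.7%) and those without in 8.96% (8.07 to 9.93%). For lone peaks these shares were 3.44% and 1.31%. All 4 lists shared 53 chained peaks (1.07%), and 3311 chained peaks (66.7%) were called in SS18::SSX DMSO alone, against 58.9% of lone peaks.

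Of the 1175 SS18::SSX MS67 peaks, 565 lay inside chain spans (48.1%; 45.2 to 51.0%), in 285 chains. Inside chains, 91.0% of these MS67 peaks overlapped an SS18::SSX DMSO peak, against 56.6% outside and 73.1% in all. Chain spans were drawn around dense SS18::SSX DMSO peaks, so the higher share inside them is partly set by that choice. The same chaining rule gave 20 chains in the SS18::SSX MS67 list itself, of which 19 (95%) overlapped 18 of the DMSO chains (2.85%). The ratio of MS67 to DMSO peak numbers was 0.114 inside chains and 0.0599 outside for SS18::SSX. For WDR5 it was 0.276 inside and 0.403 outside. By covered length, these ratios were 0.122 and 0.0818 for SS18::SSX and 0.185 and 0.300 for WDR5.

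WDR5 was present in most chains, although few of its peaks were there. WDR5 DMSO peaks inside chain spans numbered 1813 of 35605 (5.09%), and 566 chains (89.7%) had at least 1. Their density was 154 per Mb, against 11.5 elsewhere. WDR5 MS67 peaks numbered 500 of 14123 (3.54%), in 314 chains (49.8%). Peaks of all 3 other lists were found in 176 chains and of none in 44. Of the WDR5 DMSO peaks in chains, 66.0% overlapped an SS18::SSX peak and 19.6% were at promoters, against 34.4% of WDR5 peaks outside chains.

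WDR5 peaks inside chains were called less often after MS67 than those outside. With MS67, 319 of 1813 were still called (17.6%; 15.9 to 19.4%), against 25.4% outside (24.9 to 25.9%) and 25.0% of all WDR5 DMSO peaks. The share was lower inside chains in each of 5 classes of WDR5 −log10 q, from 8.56% against 10.9% in the weakest to 38.7% against 50.3% in the strongest. The intervals overlapped in the 3 weakest classes. At SS18::SSX peaks, 21.3% of WDR5 peaks inside chains were kept and 35.5% of those outside, and between the SS18::SSX peaks of a chain 10.4% were. The local WDR5 background at WDR5 peaks was 13.3 times the lowest inside chains and 4.70 times outside with DMSO, and 12.6 and 4.47 times with MS67. The chain at chr10:35872553-35890391 was an exception in number, with 8 SS18::SSX DMSO, 0 SS18::SSX MS67, 5 WDR5 DMSO and 7 WDR5 MS67 peaks. Its Mb had a WDR5 DMSO background of 22.3 times the lowest, and the nearest coding start site was that of *FZD8*, 230257 bp away.

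The sequence of chained peaks was rich in GC, and CpG island-like sequence was less frequent in it than in lone peaks. Over 300 bp around the summit, the median GC content was 62.0% in chained and 57.0% in lone peaks, beside 40.9% in the genome. Within 5 Mb of a chromosome end these were 63.0% and 62.0%, and elsewhere 57.3% and 56%, so GC content differed more between places than between chained and lone peaks of 1 place. The observed CpG number over that expected from base composition was 0.342 in chained and 0.362 in lone peaks, beside 0.240 in the genome. Sequence like a CpG island (GC of 50% or more and a CpG ratio of 0.6 or more) was found in 13.5% of chained peaks (12.5 to 14.4%) and 28.6% of lone peaks (27.4 to 29.8%). Promoters held 13.6% of chained, 31.7% of lone and 23.7% of all SS18::SSX peaks. At promoters, 25.6% of 673 chained and 59.7% of 1776 lone peaks were CpG island-like, and the median CpG ratio was 0.440 and 0.670. Away from promoters, the shares were 11.6% (10.6 to 12.6%) of 4290 chained and 14.2% (13.1 to 15.3%) of 3829 lone peaks, and the median CpG ratio was higher in chained peaks, at 0.329 against 0.263.

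Chains fell into kinds by place and genes. In the 43 chains over 5 Mb from an end that held a developmental transcription factor start site (345 peaks), the median CpG ratio was 0.570, and 42.0% of peaks (36.8 to 47.4%) were CpG island-like. In the 207 other chains over 5 Mb from an end (1064 peaks) these were 0.293 and 20.3%, and in the 365 such chains near an end (3248 peaks) they were 0.336 and 8.28%. WDR5 DMSO overlapped 23.2% (18.8 to 28.0%), 33.6% (30.7 to 36.5%) and 21.8% (20.4 to 23.2%) of peaks in these 3 kinds. SS18::SSX peaks were kept in 8.12% (5.46 to 11.5%), 4.42% (3.26 to 5.83%) and 12.7% (11.6 to 13.9%). An SS18::SSX MS67 peak was present in 51.2%, 21.3% and 56.4% of the chains. Peaks of the interior chains with transcription factor genes overlapped WDR5 less often than those of the other interior chains. The 2 intervals did not meet, but they treat peaks of 1 chain as independent and are too narrow. These kinds also differed in chain size (a median of 7 against 5 peaks) and in median local background (20.1 against 11.2 times the lowest). The part of size and background in the difference was not tested. Kept shares of these 2 interior kinds had overlapping intervals. The 16 chains near an end at developmental transcription factor genes (306 peaks), *SOX8*, *IRX4*, *UNCX*, *MNX1* and *BHLHE23* among them, had 12.4% CpG island-like peaks, 26.8% WDR5 overlap and 12.7% kept peaks. Their median local background, at 38.2 times the lowest, was above the 20.1 times of the interior transcription factor chains.

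**Figure D5:**
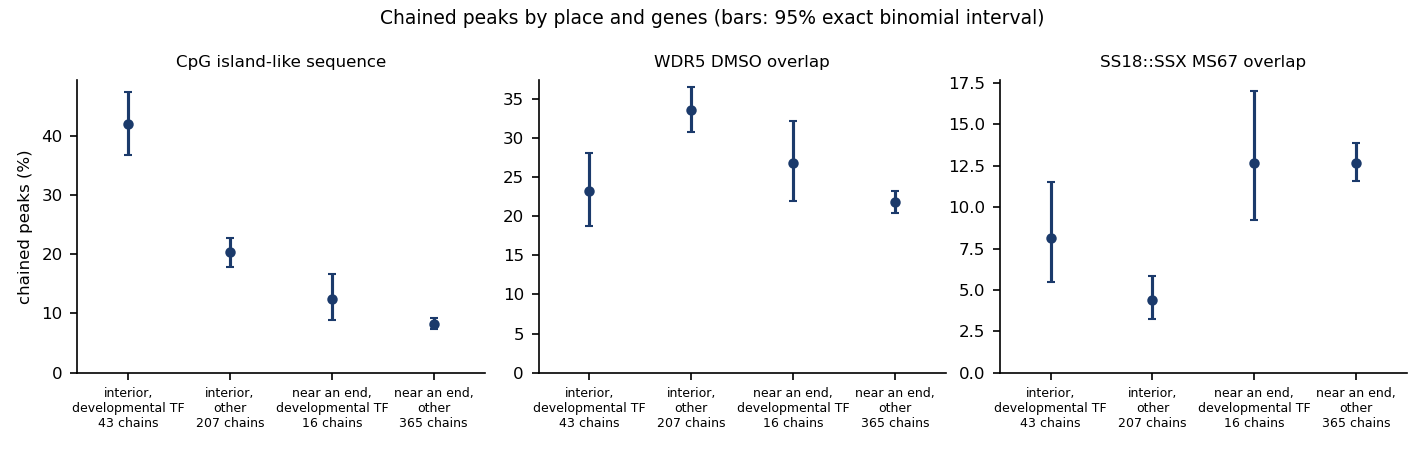
Share of chained SS18::SSX DMSO peaks in percent that were CpG island-like (left), overlapped by WDR5 DMSO (middle) or overlapped by SS18::SSX MS67 (right), by the place and genes of the chain, with 95% exact binomial intervals. Interior means over 5 Mb from a chromosome end. Interior chains at developmental transcription factor (TF) genes have the highest CpG island-like share (42.0%).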

How the data were processed

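HSSY II cells gave 4 CUT&RUN peak lists, from 1 library each. The authors aligned the reads with Bowtie2 to hg38, and to the mouse genome for the spike-in, filtered them with Samtools, removed duplicates with Picard and called peaks in each library with MACS2, whose options for the deposited lists are not given in the sources used here. For a comparison of called peaks, the study states thresholds of −log10 q above 3 and fold above 3 for SS18::SSX or above 6 for WDR5. The deposited lists hold weaker peaks too (54.7% of SS18::SSX DMSO and 17.9% of WDR5 DMSO peaks pass), and were used whole, with these thresholds as alternatives. The values the authors deposited are peak positions, a fold ratio over local background, and −log10 p and −log10 q. The deposited score of each peak was not used. Fold and −log10 p together gave the whole-number pileup and the background at each summit (misfit under 0.001 in −log10 p). This step and the chaining were tested on simulated data.

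Peaks of separate lists were matched where they shared 1 bp or more. Genes were those of GENCODE 44, and promoters covered 1000 bp before a start site and 100 bp after it. Classes of summit pileup and width were added after results were seen. The WDR5 background of a Mb is the median over its WDR5 DMSO peaks (5 or more). Members and gene lists were chosen with earlier results of these data known, and the homeobox and *PAX*/*SOX*/*FOX* patterns were corrected after first matching unrelated symbols. Genes were named for the 15 chains with most peaks, the 10 largest with a developmental transcription factor start site, the 5 with most peaks of each other list, the 5 of highest background, and the genes the study followed. Family members and genes named as examples outside that rule were chosen after their values were seen. Python 3.11.15, numpy 2.4.6, scipy 1.17.1 and pandas 2.3.3 were used. Items that the naming rule and gene lists cover but that are withheld are not reported here. Spike-in-scaled signal was not analysed here.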

Additional observations from a re-analysis of the deposited data

How the results depend on the processing

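Counts changed with the definition of a chain. A setting that left out chains whose background was at least 2 times the lowest of the list left 1 chain of 4 peaks, with 0 peaks of each other list and shares of 0, so it bears on no comparison and is left out of the counts that follow. The overlap with WDR5 DMSO was lower in chained than in lone peaks in 12 of 12 alternatives, the kept share of SS18::SSX peaks was higher in 11 of 12, and the kept share of WDR5 peaks was lower inside than outside chains in 11 of 11. The exception was the highest class of summit pileup (added after seeing the data), where 15.6% of chained and 35.3% of lone peaks were kept and the overlap was 20.7%. Only this pileup class was among the alternatives, and fewer chained than lone peaks were kept in 4 of the 5 classes. The alternatives reuse the same peaks and are not independent, and the others did not match pileup. The intervals of chained and lone peaks overlapped for the WDR5 overlap with stricter SS18::SSX peaks, as did those of the WDR5 kept share with all 4 lists at the study's peak thresholds. The overlap, kept share and WDR5 kept share are given in that order below.

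With a gap of 5 kb, the overlap was 21.9% and the kept share 11.6%, and chains held 1013 WDR5 DMSO and 275 WDR5 MS67 peaks. With a gap of 20 kb, the 3 shares were 26.6%, 9.52% and 19.6%, with 2789 WDR5 DMSO and 813 WDR5 MS67 peaks. With 3 or more peaks, there were 1178 chains, an overlap of 27.4% and a kept share of 9.63%. With 6 or more, there were 307 chains, 22.4%, 11.8% and 318 WDR5 MS67 peaks. With SS18::SSX peaks of −log10 q above 3 and fold above 3, 227 chains held 1195 peaks, the shares were 37.0%, 14.1% and 19.8%, and 183 SS18::SSX MS67, 652 WDR5 DMSO and 197 WDR5 MS67 peaks lay inside. Lone peaks then had an overlap of 40.1%. With all 4 lists at the study's peak thresholds (added after seeing the data), the shares were 4.10%, 5.86% and 6.98% (3 of 43 WDR5 peaks), beside 11.3%, 2.05% and 16.6% in lone or outside peaks. With peaks within 1 kb merged, 335 chains held 2196 peaks, with an overlap of 31.3% and a kept share of 15.4%. Overlap of at least 50% of a peak gave 15.7%, 4.71% and 8.44%, a peak within 1 kb gave 46.4%, 19.7% and 29.2%, and −log10 q above 5 in the other list gave 11.2%, 2.90% and 2.48%. Without chains in Mb of raised WDR5 background (above the 95th percentile, an alternative chosen after seeing the data), 453 chains held 3218 peaks, with an overlap of 22.8%, a kept share of 9.07%, and 310 SS18::SSX MS67, 1089 WDR5 DMSO and 290 WDR5 MS67 peaks inside.

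No paired analysis was possible because each condition has 1 library and no result comes from a test across samples. Coverage was lowest for WDR5 MS67, at 0.168 fragments per bp. With 1 library per condition an effect of MS67 and a difference between libraries cannot be told apart.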
